A study of Mus musculus with 9 samples.

Results

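The genes of the neuronal intermediate filaments were followed in RNA from the striatum of 9 mouse embryos, taken at E17.5. The set held 5 of the 44886 genes in the count tables, namely Nefl, Nefm and Nefh, which encode the light, medium and heavy neurofilament chains, Ina, which encodes alpha-internexin, and Prph, which encodes peripherin. Their Ensembl identifiers were matched to these symbols in GENCODE M21. Nefl was chosen because it was strongly lower in both mutants, so its differences from controls are given here as a description without a test. The other members belong to the set by name, and the set was chosen with earlier results of these data known. Of the 5 genes, 4 passed the filter on low counts that 16368 genes passed, and Prph did not.

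Neurofilaments are the intermediate filaments of neurons. The light chain forms the core of the filament, and the medium and heavy chains join it with long tails that project from the surface and set the spacing of filaments and the calibre of the axon. Alpha-internexin assembles with these chains in central neurons and is abundant early in development, whereas peripherin belongs mainly to peripheral neurons and to central neurons that project to the periphery, and the heavy chain rises late as axons mature. Spiny projection neurons (SPN), the principal neurons of the striatum, send long axons to the pallidum and midbrain, and Ebf1 is a transcription factor of those of the direct pathway (dSPN), as opposed to the indirect pathway (iSPN).

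Each genotype was represented by 3 embryos, each a separate brain and library. Embryos labelled Islet1Cre;Ebf1fl/- and Dlx5/6::Cre;Ebf1fl/- carried 1 floxed and 1 null Ebf1 allele with a Cre that recombines in dSPN and cholinergic interneurons or in all SPN and interneurons, respectively. The labels give the third group only as Control. The mutants came from crosses with Ebf1fl/fl mice, so every embryo of such a cross inherited a floxed allele. The study used heterozygous embryos as controls. The labels give strain C57BL/6 for all, although the Islet1Cre line was kept on B6D2F1/J, and Islet1Cre is a heterozygous allele of Islet1 itself.

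Counts on genes ranged from 16548083 to 41507049 per library, with the smallest total in Islet1Cre;Ebf1fl/- embryo 3. Ebf1 was not lower in the libraries labelled mutant: its normalized count was 7945 to 14208 in controls, 13210.0 to 15343 in Islet1Cre;Ebf1fl/- and 11774 to 15312 in Dlx5/6::Cre;Ebf1fl/-, so its total does not check the genotypes, which are used here as labelled, and a deletion of some exons need not lower it. The study identified the genotypes by PCR before RNA was obtained. By immunostaining it found no Ebf1 protein in the striatum of either mutant at E17.5. Markers of SPN, dSPN and iSPN were present in every group. In 2 libraries, Control 3 and Islet1Cre;Ebf1fl/- 3, both Xist and Y-linked transcripts exceeded a normalized count of 100. Xist was at 12074 and 7270 there, and the sum of 4 Y-linked genes at 295 and 2450. Whether these 2 libraries held RNA of more than 1 embryo was not tested, and each is counted here as 1 embryo. Of the rest, Control 2 held Y-linked transcripts at 3800 with Xist at 3.27. The others held Xist with Y-linked sums up to 3.62. Every Dlx5/6::Cre;Ebf1fl/- library was of this last kind, so sex and genotype were partly confounded, and the part of sex was not tested. Dlx5/6::Cre;Ebf1fl/- embryo 1 stood apart by its cycling markers, whose sum of normalized counts was 11054 against 1837 to 3186 in the other 8 libraries, and by those of cortical excitatory neurons and radial glia. Embryo codes began with IE in all Islet1Cre;Ebf1fl/- embryos and Controls 1 and 2, and with D in all others, so that the code and the genotype were partly confounded.

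Nefl and Nefm are neighbours on chromosome 14 in GRCm38, on opposite strands. Nefl, ENSMUSG00000022055, runs from 68083863 to 68089095 on the plus strand, and Nefm, ENSMUSG00000022054, from 68082590 to 68124846 on the minus strand. The main Nefm transcript does not meet Nefl, but the last exon of the annotated transcript Nefm-202 covers 1108 bases of Nefl exon, 32.8% of the 3380 exonic bases of Nefl and 19.2% of the 5782 of Nefm. Within it, 144 bases are coding in both genes, chr14:68084827-68084970. They are printed here on the Nefl strand, from GENCODE M21, because reads from this stretch belong to one gene or the other only by their strand.

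Nefl coding stretch shared with Nefm-202: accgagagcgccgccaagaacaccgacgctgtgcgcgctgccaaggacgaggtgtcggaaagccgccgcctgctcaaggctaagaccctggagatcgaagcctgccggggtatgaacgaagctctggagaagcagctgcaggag

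The libraries were stranded, but whether the counting used strand was not given in the sources used here, and without it reads of the shared 1108 bases cannot be told apart. Of 369 genes whose exons lie wholly within exons of the opposite strand, 4.07% had at least 90 reads in the 9 libraries together, against 40.9% of 631 genes wholly within exons of the same strand. No window of 75 bases, the read length, in the main transcript of any of the 5 genes occurred in the transcripts of another gene on the same strand. Ina shares 456 exonic bases with Nt5c2 on the opposite strand.

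The tails of the medium and heavy chains carry repeats of lysine, serine and proline that are sites of phosphorylation. The coding sequence of the main transcript held such a run of 3 codons 51 times among 1090 codons in Nefh and 4 times among 848 in Nefm, and 0 times in Nefl, Ina and Prph. A stretch of 40 codons of Nefh-201, from codon 521 to 560, is shown with the 7 runs in capitals, because it is the feature that sets this gene apart from the rest. Of the windows of 75 bases in Nefh, 2.4% occurred more than once within the transcript.

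Nefh codons 521 to 560: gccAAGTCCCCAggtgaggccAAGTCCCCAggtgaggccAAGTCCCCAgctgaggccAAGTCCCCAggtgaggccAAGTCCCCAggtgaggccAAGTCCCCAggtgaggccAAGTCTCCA

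Nefl was lower in every mutant embryo than in every control. Its normalized counts, which are counts divided by the size factor of the library, were 3149, 2566 and 3237 in the controls, 714, 629 and 1203 in the Islet1Cre;Ebf1fl/- embryos and 294, 648 and 539.8 in the Dlx5/6::Cre;Ebf1fl/- embryos. The highest mutant value, that of Islet1Cre;Ebf1fl/- embryo 3, was under the lowest control, and the lowest was that of Dlx5/6::Cre;Ebf1fl/- embryo 1. The group means were 2984 ± 365, 848.5 ± 309.6 and 494 ± 182 (SD, n = 3), so the mutants held 28.4% and 16.6% of the control mean. On the fitted scale the log2 fold change was −1.83 (SE 0.28) for Islet1Cre;Ebf1fl/- and −2.59 (SE 0.29) for Dlx5/6::Cre;Ebf1fl/-, that is, 3.56-fold and 6.02-fold lower. Among the 16368 genes, 20 and 36 had a more negative log2 fold change in the respective comparisons, and these ranks rest on the contrasts that Nefl was chosen on.

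The value of Nefl moved with single embryos. Without Islet1Cre;Ebf1fl/- embryo 3, one of the libraries with both Xist and Y-linked counts, the log2 fold change in that genotype was −2.16, and without Dlx5/6::Cre;Ebf1fl/- embryo 1 it was −2.33 in the other. With both libraries that held Xist and Y-linked counts left out, the values were −2.09 and −2.53. Whether fewer cells that express a gene or less of its RNA per cell lies behind a lower count cannot be told apart in RNA from whole tissue.

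**Figure D1:**
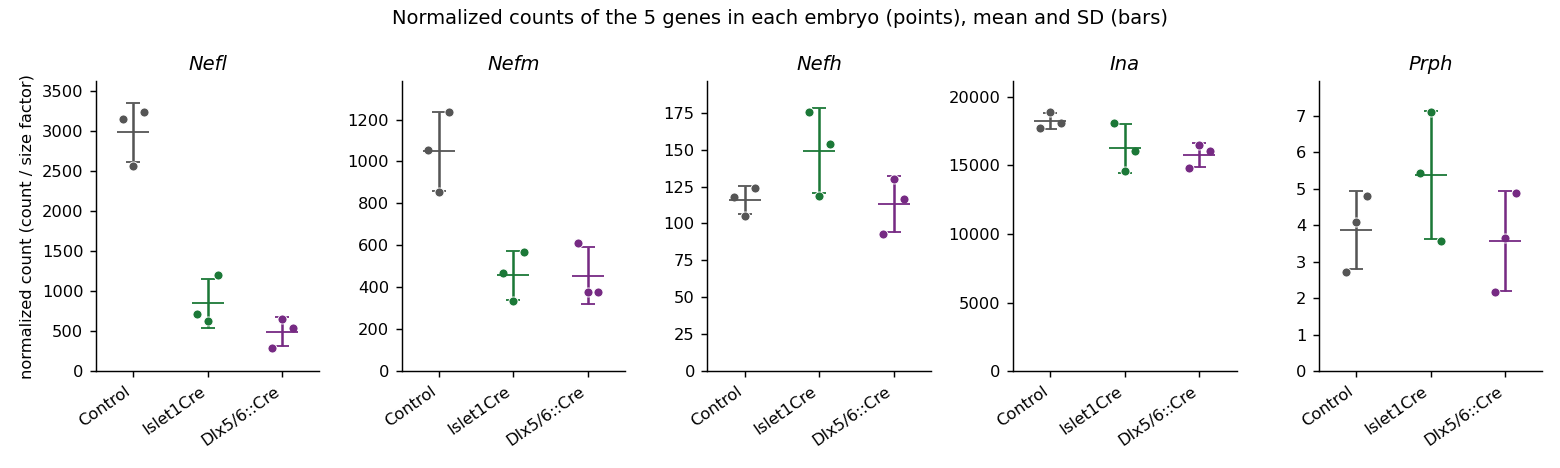
Normalized counts (count divided by the size factor of the library, linear axes from 0) of the 5 genes in the 3 embryos of each label, with points for embryos and bars for mean and SD. Nefl and Nefm lie below all 3 controls in all 6 mutant embryos, whereas the groups overlap for Nefh and Prph, and Ina differs by little.

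Between the 2 mutants, a contrast on which Nefl was not chosen, its log2 fold change was −0.76 for Dlx5/6::Cre;Ebf1fl/- against Islet1Cre;Ebf1fl/- (95% interval −1.39 to −0.13). The ranges overlapped, since Dlx5/6::Cre;Ebf1fl/- embryo 2 lay above Islet1Cre;Ebf1fl/- embryo 2. In edgeR's quasi-likelihood test its p was 0.0226 before and 0.868 after Benjamini-Hochberg adjustment over all genes tested. Of all genes, 0% passed the threshold of 0.05 in this contrast, with 844 at an unadjusted p below it, and 18 genes passed with DESeq2. A difference between the mutants in Nefl was therefore not shown.

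Nefm, the medium chain, entered the set by name, although the set was chosen with earlier results of these data known. It fell in both mutants. Its normalized counts were 1054, 857 and 1235 in the controls, 468, 333 and 569 in the Islet1Cre;Ebf1fl/- embryos and 612, 378 and 377 in the Dlx5/6::Cre;Ebf1fl/- embryos. All 6 mutant embryos lay below the lowest control, and the highest of them was Dlx5/6::Cre;Ebf1fl/- embryo 1, the embryo with the lowest Nefl. The means were 1048.5 ± 189 in controls, 457 ± 118 in Islet1Cre;Ebf1fl/- and 456 ± 136 in Dlx5/6::Cre;Ebf1fl/- (SD, n = 3). The log2 fold change against controls was −1.21 (SE 0.24) in Islet1Cre;Ebf1fl/- and −1.21 (SE 0.24) in Dlx5/6::Cre;Ebf1fl/-. Both passed edgeR's quasi-likelihood test after Benjamini-Hochberg adjustment, with 0.0428 and 0.0262 as the adjusted p. The mutants differed from each other by 0.01 (95% interval −0.52 to 0.54, adjusted p = 0.997).

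Over all settings tried the log2 fold change of Nefm stayed between −1.40 and −1.02 in Islet1Cre;Ebf1fl/- and between −1.48 and −1.08 in Dlx5/6::Cre;Ebf1fl/-. Both calls of Nefm were close to the threshold in the main fit and further below it by DESeq2's Wald test (adjusted p = 3.39e-05 and 1.74e-05). The first was lost in 7 of 9 fits that left out 1 embryo (any control, any Islet1Cre;Ebf1fl/- embryo or Dlx5/6::Cre;Ebf1fl/- embryo 3; adjusted p up to 0.214), and the second in 5 of 9 (without Controls 1 or 3, Islet1Cre;Ebf1fl/- embryo 1, or Dlx5/6::Cre;Ebf1fl/- embryos 2 or 3; adjusted p up to 0.0989). With both libraries that held Xist and Y-linked counts left out the adjusted p was 0.155 and 0.111 by edgeR. Within embryos of code IE it was 0.0362 in the first comparison, and within those of code D, where 1 control remains, it was 0.547 in the second.

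Nefh, the heavy chain, passed the threshold in neither comparison. Its normalized counts were 118, 105 and 124 in controls, 175, 118 and 154 in the Islet1Cre;Ebf1fl/- embryos, and 92.8, 130.2 and 117 in the Dlx5/6::Cre;Ebf1fl/- embryos. The groups overlapped in both comparisons. On the log2 scale it differed from controls by 0.36 in Islet1Cre;Ebf1fl/-, with a 95% interval from −0.10 to 0.82, and by −0.03 in Dlx5/6::Cre;Ebf1fl/-, with one from −0.49 to 0.43. The adjusted p from edgeR was 0.821 and 0.964. Both intervals lay above the estimates for Nefm, −1.21 in each comparison, although the difference between the genes itself was not tested. With 86 to 167 reads per library, Nefh had the fewest reads of the 4 genes tested.

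Ina, the most abundant member, passed the threshold in neither comparison. Its normalized counts were 17725, 18873 and 18073 in controls, 18087, 14568 and 16032 in the Islet1Cre;Ebf1fl/- embryos, and 14779, 16472 and 16044 in the Dlx5/6::Cre;Ebf1fl/- embryos. All 3 Dlx5/6::Cre;Ebf1fl/- embryos but only 2 Islet1Cre;Ebf1fl/- embryos lay below the lowest control. The means were 89.1% and 86.5% of the control mean. On the log2 scale Ina differed by −0.17 in Islet1Cre;Ebf1fl/-, with a 95% interval from −0.37 to 0.03, and by −0.21 in Dlx5/6::Cre;Ebf1fl/-, with one from −0.41 to −0.01. In edgeR the second had an unadjusted p of 0.0405, and the adjusted p was 0.759 and 0.295.

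Prph was at the edge of detection. Its counts before normalization were 3, 5 and 5 in the controls, 4, 10 and 2 in the Islet1Cre;Ebf1fl/- embryos, and 2, 4 and 6 in the Dlx5/6::Cre;Ebf1fl/- embryos. The groups overlapped, and a difference was not detectable at this depth. Markers of peripheral and motor neurons, the cells in which peripherin is best known, were likewise at the floor: the sum of all 5 was between 0.9 and 8.2 normalized counts per library, none was tested, and Mnx1 had no read in any library.

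**Figure D2:**
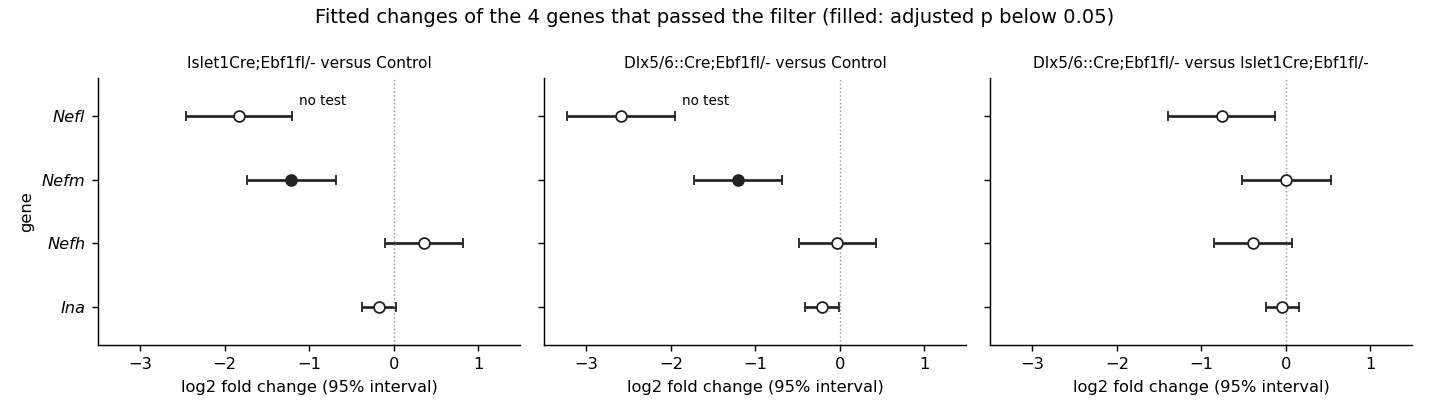
Fitted log2 fold changes (points) with 95% intervals (bars) of the 4 genes that passed the filter, in the 3 comparisons. Filled points passed an adjusted p of 0.05, which only Nefm did, in both comparisons with controls, and the Nefl values against controls carry no test because Nefl was chosen on them.

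Of the 3 members with a test against controls, Nefm, Nefh and Ina, 1 was lower in each comparison and 0 were higher. Over all genes tested, 0.971% passed in Islet1Cre;Ebf1fl/- and 2.39% in Dlx5/6::Cre;Ebf1fl/-, and those that were lower made up 0.501% and 1.34%. Of the 4 members that passed the filter, Nefl and Nefm in Islet1Cre;Ebf1fl/- and Nefl, Nefm and Ina in Dlx5/6::Cre;Ebf1fl/- had every mutant embryo below every control, which was so for 7.28% and 11.3% of all genes tested. Nefl was chosen for this direction and adds nothing to these counts. The 2 comparisons share their 3 controls and are not independent. The median log2 fold change of all genes was −0.00164 and 0.0114.

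Levels were compared between genes per length, as CPM, counts scaled to a common library size with TMM factors, per kilobase of exon. In controls, Ina stood at 187 ± 5.64, Nefl at 29.3 ± 3.62, Nefm at 6.02 ± 1.09, Nefh at 0.961 ± 0.0800 and Prph at 0.0642 ± 0.0176 (SD, n = 3). The order was the same in both mutants. Neighbours in it did not overlap in any group, except Nefl and Nefm in Dlx5/6::Cre;Ebf1fl/-, where Nefl ranged from 2.89 to 6.36 and Nefm from 2.15 to 3.52. The order was also the same with coding length and with the length of the main transcript. It was the same with DESeq2 size factors too, which scale all genes of a library alike and cannot reorder them within it. In RNA of the embryonic striatum Ina was thus the leading member of the family in each group, and Nefh was present at a low level.

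**Figure D3:**
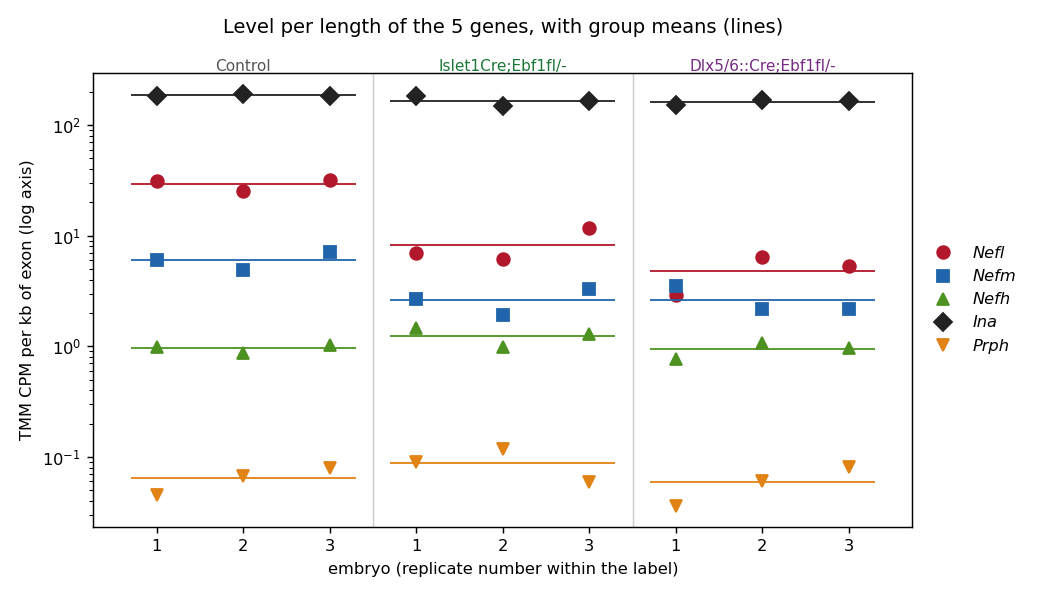
TMM-scaled CPM per kilobase of exon (log axis) of the 5 genes in each embryo, with lines for the mean of each label. Ina stays between 149 and 193 in all embryos, whereas Nefl moves from 25.1 to 31.8 in controls towards Nefm in the mutants, and the symbols of both meet in Dlx5/6::Cre;Ebf1fl/- embryo 1.

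The members' shares of the family differed between groups. The sum of the 5 levels was 223 ± 2.57 in controls, 178 ± 19.0 in Islet1Cre;Ebf1fl/- and 170 ± 9.94 in Dlx5/6::Cre;Ebf1fl/- TMM CPM per kilobase. Nefl made up 13.1% ± 1.66 of this sum in controls, 4.67% ± 1.63 in Islet1Cre;Ebf1fl/- and 2.82% ± 0.901 in Dlx5/6::Cre;Ebf1fl/- (SD, n = 3), a description that follows from the choice of Nefl. Ina made up 83.7%, 93.1% and 95.04%. The share of Nefh was 0.431% ± 0.0361 in controls, 0.690% ± 0.0619 and 0.551% ± 0.0606 in the mutants, in the same order. Shares of 1 sum depend on each other, so that a lower Nefl gives the others a higher share at an equal level.

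The ratio of Nefl to Nefm, again per length, was 5.11, 5.12 and 4.48 in controls, 2.61, 3.23 and 3.62 in Islet1Cre;Ebf1fl/- and 0.821, 2.93 and 2.45 in Dlx5/6::Cre;Ebf1fl/-. It was below the lowest control in all 6 mutant embryos, and Nefm exceeded Nefl in Dlx5/6::Cre;Ebf1fl/- embryo 1 only. This ratio uses all annotated exons of Nefm. With the length of the main transcripts it was 2.83 ± 0.211, 1.82 ± 0.292 and 1.19 ± 0.639 (SD, n = 3). The counts stayed the same and only the lengths changed, so the order of the groups could not differ. No test is given, since Nefl was chosen on its fall.

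Dlx5/6::Cre;Ebf1fl/- embryo 1 also differed in the markers of other cells. The 4 cycling markers summed to 11054 normalized counts there and to 2204.5 and 2166.4 in the other embryos of this label. The 8 markers of cortical excitatory neurons summed to 6362 in this embryo, to 2689.9 and 3137.5 in embryos 2 and 3 of the label, 1081 to 2565 in controls and 1019 to 1954 in Islet1Cre;Ebf1fl/-. All 8 had a positive log2 fold change in Dlx5/6::Cre;Ebf1fl/-, with a median of 1.06, and 0 of 8 passed the threshold, the most abundant being Tbr1, a transcription factor of deep-layer neurons, at 1.03 (adjusted p = 0.129 by edgeR). In Islet1Cre;Ebf1fl/- their median was −0.27. The 5 markers of radial glia and astrocytes summed to 27361 in that embryo against 13863 to 21060.0 elsewhere. The part of these cells in the values of Nefl and Nefm was not tested, and without this embryo Nefm in Dlx5/6::Cre;Ebf1fl/- was at −1.48 (adjusted p = 0.00291 by edgeR).

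Of 67 genes tested in 14 marker lists, 0 passed in Islet1Cre;Ebf1fl/- and 1, Foxp1, a transcription factor of SPN, was lower in Dlx5/6::Cre;Ebf1fl/- at −0.53 (SE 0.11, adjusted p = 0.0305 by edgeR); that call was lost in 7 of 9 fits that left out 1 embryo. These counts are near the 0.971% and 2.39% of all genes that passed. The dSPN markers, Drd1, Tac1, Pdyn, Isl1 and Foxp2, summed to 13604 to 19384 in controls, 15461 to 17298 in Islet1Cre;Ebf1fl/- and 10761 to 13668.5 in Dlx5/6::Cre;Ebf1fl/-, with 0 of 5 called. Their values differed in sign: Drd1, the dopamine D1 receptor gene, was at 0.67 and 0.53, and Tac1, the substance P precursor gene, at −0.53 and −1.12. The median log2 fold change of the dSPN markers was −0.00358 and −0.40, against 0.07 and 0.20 for the 6 iSPN markers, of which 0 passed. The most abundant of each, Isl1 and the adenosine receptor gene Adora2a, were at −0.40 (adjusted p = 0.0817) and 0.23 (adjusted p = 0.393) in Dlx5/6::Cre;Ebf1fl/-.

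Other genes were read from 7 lists with 63 genes, of which 58 were tested. They held binders of neurofilament messages, linkers, kinases, motors and turnover genes of the filaments, and, as a wider setting, other intermediate filaments and the axonal cytoskeleton. In Islet1Cre;Ebf1fl/- 1 of the 58 passed and in Dlx5/6::Cre;Ebf1fl/- 2, all lower, which is near the 0.971% and 2.39% of all genes and is no result about the lists. Arhgef28, a guanine nucleotide exchange factor that binds the messenger RNA of the light chain, was the gene lower in both. Its normalized counts were 549.95, 439 and 541 in controls, 219, 271 and 247 in Islet1Cre;Ebf1fl/- and 189.98, 262 and 222 in Dlx5/6::Cre;Ebf1fl/-. All 6 mutant embryos were below every control, and the mutants overlapped each other. Of all genes tested, 7.28% in Islet1Cre;Ebf1fl/- and 11.3% in Dlx5/6::Cre;Ebf1fl/- had every mutant embryo below every control. The log2 fold change of Arhgef28 was −1.05 (SE 0.16, adjusted p = 0.0175 by edgeR) and −1.18 (SE 0.16, adjusted p = 0.00447). The first call was lost in 5 of 9 fits without 1 embryo (Controls 1 or 3, or any Islet1Cre;Ebf1fl/- embryo; adjusted p up to 0.103) and the second in none of 9 (adjusted p up to 0.0270), and with both libraries that held Xist and Y-linked counts left out the values were 0.193 and 0.0524. With the code prefix as a covariate both calls were lost as well (adjusted p = 0.0613 and 0.0780 by edgeR), and within code D, where 1 control remains, the second was at 0.491. The other gene of this list, Tardbp, an RNA-binding protein of the nucleus, was at 0.05 and 0.10.

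Of the 27 genes tested among axonal cytoskeleton and growth genes, 0 passed in Islet1Cre;Ebf1fl/- and 1 in Dlx5/6::Cre;Ebf1fl/-. This was Dpysl4, a member of the collapsin response mediator proteins, at 6339 ± 511 normalized counts in controls, 5276 ± 148 in Islet1Cre;Ebf1fl/- and 4909 ± 324 in Dlx5/6::Cre;Ebf1fl/- (SD, n = 3). Every mutant embryo was below every control, which was so for 7.28% of all genes tested in Islet1Cre;Ebf1fl/- and 11.3% in Dlx5/6::Cre;Ebf1fl/-. The log2 fold change was −0.27 (adjusted p = 0.249 by edgeR) and −0.37 (SE 0.08, adjusted p = 0.0392), and the call was lost in each of 9 fits without 1 embryo. The median of the list was −0.01 and −0.02, close to that of all genes. Its values ran from −0.27 to 0.25 in Islet1Cre;Ebf1fl/- and from −0.37 to 0.33 in Dlx5/6::Cre;Ebf1fl/-, and Tubb3, a neuronal tubulin, was at −0.17 and −0.09.

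The 5 other lists held no gene past the threshold in either comparison. They were 7 tested genes of other intermediate filaments (median 0.01 and 0.30), 3 linkers of filaments to other structures (−0.14 and −0.43), 6 motors of axonal transport (0.04 and 0.00), 7 kinases (−0.01 and 0.01) and 6 genes of turnover (−0.02 and −0.07). By the mean over all libraries their most abundant genes were the lamin Lmnb1 (0.02 and 0.30), the spectraplakin Macf1 (−0.03 and −0.16), the kinesin light chain Klc1 (−0.03 and −0.11), the Cdk5 activator Cdk5r1 (−0.07 and 0.03) and the ubiquitin ligase Trim2, which acts on the light chain (0.14 and 0.27). Vim, the filament of progenitors, was picked out after its values were seen: its normalized count was 8449.6 in Dlx5/6::Cre;Ebf1fl/- embryo 1 and 2539.8 to 3230.5 in the other 8 libraries.

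**Figure D4:**
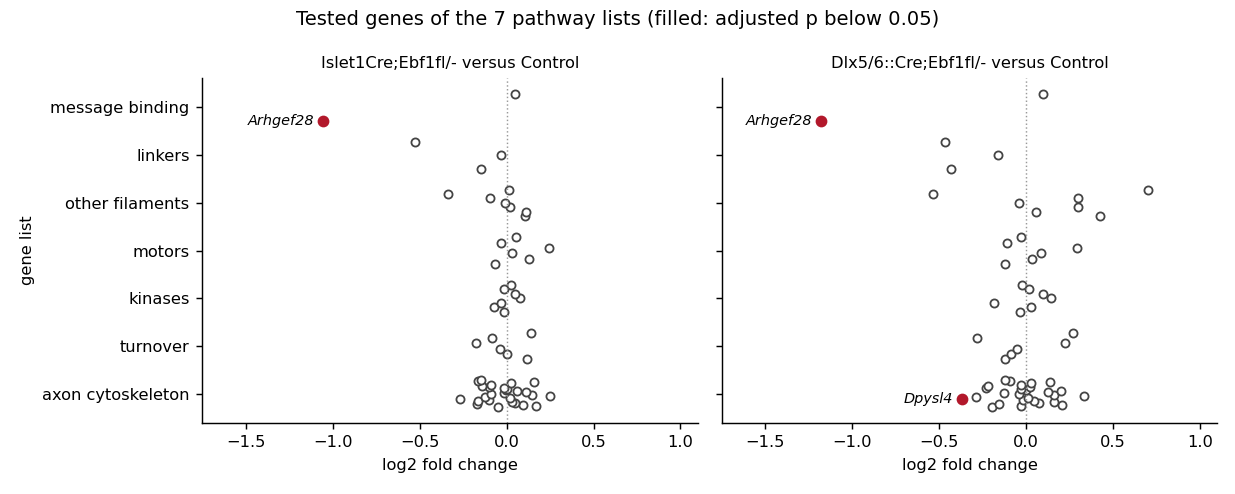
Log2 fold changes (points) of the 58 tested genes of the 7 lists in Islet1Cre;Ebf1fl/- (left) and Dlx5/6::Cre;Ebf1fl/- (right) against controls, with filled points for an adjusted p below 0.05. Arhgef28 lies apart at −1.05 and −1.18, and Dpysl4 is the only other filled point.

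The surroundings of the genes were also read. Within 1 Mb of Nefl and Nefm the annotation holds 29 other genes, of which 6 were tested and 0 passed in either comparison, with log2 fold changes from −0.67 to 0.28 in Islet1Cre;Ebf1fl/- and from −1.11 to 1.05 in Dlx5/6::Cre;Ebf1fl/-. Among 35 tested neighbours of Ina and 51 of Prph, 0 passed in either comparison. Among 38 of Nefh, on chromosome 11, 1 passed in Dlx5/6::Cre;Ebf1fl/-, Emid1, which was 158.2 kb away. A count of 1 in 38 is near the 2.39% of all genes that passed in this comparison and is no result about the neighbours. Emid1 was lower at −1.11 (adjusted p = 0.00447 by edgeR). Its call held in 9 of 9 fits without 1 embryo and was lost in 2 of 18 alternatives. With the code prefix as a covariate the adjusted p was 0.120 by edgeR. In Islet1Cre;Ebf1fl/- the log2 fold change of Emid1 was −0.65 (adjusted p = 0.0920). Nefh and Ebf1 lie on the same chromosome, 39.7 Mb apart.

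EBF proteins bind the palindrome CCCNNGGG. It was searched in the 250 bases before the start of each gene in the RefSeq promoter table of GRCm38.p6, where 2 of the 5 members, Ina and Prph, were found. It occurred in 11.8% of all 32851 promoters of that length, and the windows of Ina and Prph held 0 copies on either strand, which says only that these letters are not there. Capitals mark TATAAA on the strand of the gene, which 7.59% of all promoters held. The windows are chr19:47014431-47014680 for Ina, of which 70.8% was G or C, and chr15:99054924-99055173 for Prph, of which 65.2% was. They are shown because only these 2 members were in the promoter table. The promoters of Nefl, Nefm and Nefh were not searched.

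Ina promoter: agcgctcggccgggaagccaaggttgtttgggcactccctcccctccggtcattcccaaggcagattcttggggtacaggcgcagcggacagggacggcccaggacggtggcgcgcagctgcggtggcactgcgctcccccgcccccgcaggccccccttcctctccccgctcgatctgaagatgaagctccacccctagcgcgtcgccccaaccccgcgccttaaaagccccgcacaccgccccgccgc
Prph promoter: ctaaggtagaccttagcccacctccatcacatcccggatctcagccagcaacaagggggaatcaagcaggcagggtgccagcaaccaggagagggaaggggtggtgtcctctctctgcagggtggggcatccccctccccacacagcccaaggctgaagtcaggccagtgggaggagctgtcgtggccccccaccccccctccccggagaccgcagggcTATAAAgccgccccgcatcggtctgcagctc

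The genes with the profile most like that of Nefl were found by the root mean square difference from Nefl over the 9 embryos in log2 TMM CPM, each gene set against the mean log2 value of its controls, among 12050 genes with a mean normalized count of at least 100. The nearest were Rgs4, a regulator of G protein signalling (0.189), the collagen genes Col6a1 (0.191) and Col25a1 (0.337), Fam84b (0.404), Egfem1 (0.433) and Lmo2, a transcriptional cofactor (0.499). They were chosen for this likeness, so their values are a description without a test. Rgs4 had normalized counts of 12359, 11293 and 13492 in controls, 3376, 2833 and 6443 in Islet1Cre;Ebf1fl/- and 1423, 2951 and 2669 in Dlx5/6::Cre;Ebf1fl/-. Like Nefl, it was highest among the mutants in Islet1Cre;Ebf1fl/- embryo 3 and lowest in Dlx5/6::Cre;Ebf1fl/- embryo 1. Col6a1 followed the same pattern, from 1131 to 1967 in controls to 773 in the first and 142 in the second of these embryos. Within the family, Nefm ranked 45th by this measure, with a difference of 1.03, Ina had 1.76 and Nefh 2.0.

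**Figure D5:**
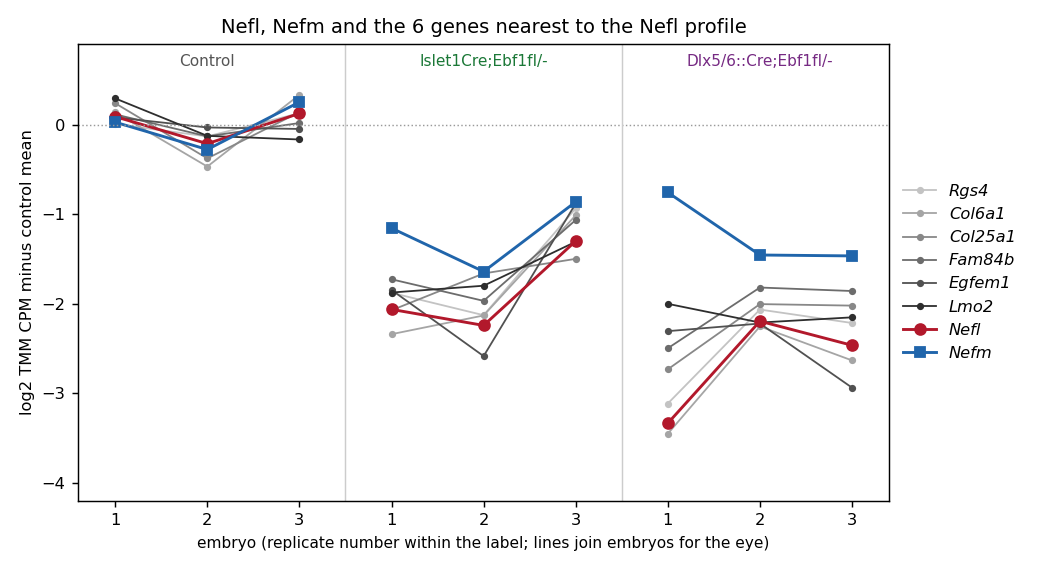
Log2 TMM CPM minus the control mean in each embryo for Nefl, Nefm and the 6 genes nearest to Nefl (grey lines, joined within a label for the eye). Nefl drops to −3.33 in Dlx5/6::Cre;Ebf1fl/- embryo 1, with Rgs4 and Col6a1 beside it, whereas Nefm is at −0.76 there, its highest value among the mutants.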

How the data were processed

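Polyadenylated RNA of the striatum of 9 embryos at E17.5 was sequenced from stranded libraries made from 400 ng of total RNA. The files deposited by the authors give raw counts for each Ensembl gene. The methods describe trimming and quality filtering, alignment by STAR 2.4.0k, exclusion of multi-mapping reads, and HTSeq 0.5.3 counting against Ensembl 81. The submitters' processing notes name build mm10. Genes with near-identical copies lose reads at the exclusion step. The strand setting of the counting was not given in the sources used here.

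Differences were fitted in edgeR 4.0.16 (R 4.3.3), with the 3 genotypes and all 9 libraries in 1 model, after filterByExpr with a minimum count of 10 and TMM scaling, with the quasi-likelihood test, Benjamini-Hochberg adjustment over 16368 genes and a threshold of 0.05. Normalized counts are counts divided by size factors of DESeq2 1.42.0. The step was tested on simulated data. Levels between genes are TMM-scaled CPM per kilobase of the union of exons in GENCODE M21, in which 44048 of 44886 identifiers were found. The members and lists were chosen with earlier results of these data known. Genes named are the members, Ebf1, of each list those past the threshold or the most abundant 1, neighbours within 1 Mb past the threshold and the 6 genes most like Nefl, and further genes are named where the text says so or as examples of a list.

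Alternatives were DESeq2, its size factors, no filter or a minimum count of 50, only the 6 embryos compared, a replicate block, the code prefix (IE or D) as a covariate, and each embryo left out. Fits within 1 code, without the libraries that held both Xist and Y-linked counts, and main transcript lengths were added after seeing the data. Replicate numbers did not pair the embryos: the mean correlation of deviations from group means was −0.0235 for 9 pairs with the same number and 0.0122 for 18 with different numbers. No 2 replicates agreed within sampling noise. Protein sequences were not analysed here, and the lysine, serine and proline runs were read from codons.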

Additional observations from a re-analysis of the deposited data

How the results depend on the processing

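Over the 18 alternatives of each comparison Nefl against controls ran from −2.16 to −1.65 in Islet1Cre;Ebf1fl/- and from −2.83 to −2.33 in Dlx5/6::Cre;Ebf1fl/-. These are also the ranges with each embryo left out. All these fits reuse the counts on which Nefl was chosen, so its kept direction is a description and no support. Between the mutants Nefl ranged from −1.0025 to −0.43 with each embryo left out. Nefm against controls kept its direction in all 18 and lost its call in 9 of 18 in each comparison, with log2 fold changes with each embryo left out from −1.40 to −1.02 and from −1.48 to −1.08. In Islet1Cre;Ebf1fl/- it was −1.08 (adjusted p = 0.166) with the code prefix as a covariate and −1.26 (0.155) without both libraries that held Xist and Y-linked counts. In Dlx5/6::Cre;Ebf1fl/- it was −1.21 (adjusted p = 0.0545) with only the 6 embryos compared, −1.44 (0.130) with the prefix, −1.44 (0.547) within code D, where the lone control is assumed to vary like the mutants, and −1.08 (0.111) without both of those libraries. With the replicate block Nefm stayed past the threshold (adjusted p = 0.0257 and 0.0128 by edgeR), and the block changed no call of another member but took Dpysl4 to 0.0521. The adjusted p of Nefm was smaller by DESeq2's Wald test (3.39e-05 and 1.74e-05) and by edgeR with no filter (0.000382 and 0.00019).

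Near zero the sign was not fixed. Nefm between the mutants was −0.0027 with only the 6 embryos compared, −0.36 with the prefix, and −0.25 to 0.20 with each embryo left out. Nefh in Dlx5/6::Cre;Ebf1fl/- was 0.022 without both libraries that held Xist and Y-linked counts and −0.14 to 0.092 with each embryo left out, and Ina between the mutants was −0.11 to 0.043.

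Genes called numbered 159 in Islet1Cre;Ebf1fl/-, 395 with DESeq2, 311 with no filter, 259 with only the 6 embryos compared, 61 with the prefix and 52 without both libraries that held Xist and Y-linked counts. In Dlx5/6::Cre;Ebf1fl/- they numbered 392, and 860, 708, 181, 32 and 138 in the same order, and 2 within code D. Between the mutants they numbered 0, and 18, 13, 2, 1 and 3. With each embryo left out the counts ran from 15 to 397, from 143 to 613 and from 0 to 4. The cause of these moves was not tested. The depth limits Prph most, with 2 to 10 reads per library, and Nefh next.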
